A study of Mus musculus with 18 samples.

Results

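The cell cycle genes described here are 39 genes of S phase and of mitosis, out of 55414 gene identifiers counted, measured in mouse brain microglia, the macrophages that reside in brain tissue. These genes were chosen by name, leaving out the subunits of the MCM helicase and the checkpoint genes. They were split into 16 S phase genes and 23 G2/M genes by the textbook role of their products, not by when each transcript peaks. Each library is labelled KO or WT for Chd8, taken here as knockout and wild type. A bulk form of MARS-seq read the 3′ ends of polyadenylated RNA, with a molecular barcode (UMI) on every captured transcript so that copies made by amplification are counted once. There were 5 male KO, 5 male WT, 4 female KO and 4 female WT libraries. The Chd8 protein is a chromatin remodeler. The labels give no age, strain, allele, number of altered copies, or cells in which Chd8 was altered, and they do not say whether each library came from a separate animal, so p-values measure the spread between these libraries only. All 18 labels carry the prefix HX, which they do not explain.

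A dividing cell copies its DNA in S phase and separates the copies in mitosis. Transcription of the S phase genes is driven by E2F factors once cyclin D kinases have inactivated the retinoblastoma protein. Most G2/M genes are held silent by the DREAM complex and later activated by MYB-MuvB and FOXM1 through CHR elements (cell cycle genes homology regions) and CCAAT boxes in their promoters. Microglia of the adult brain divide rarely, so the transcripts are scarce in bulk RNA.

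These promoter elements are shown because the share of genes whose promoters held them differed between the S phase and the G2/M genes. RefSeq promoters on build GRCm38.p6, from 250 bases before to 50 bases after the transcription start, were found for 30 of the 39 genes, 13 of S phase and 17 of G2/M. The E2F search used TTTCCCGC, TTTGGCGC, TTTCGCGC and TTTGCCGC, the CHR search TTTGAA and TTCGAA, and the third search CCAAT. Each was searched on both strands, and TTCGAA is its own reverse complement. The windows below are 30 bases long, written 5′ to 3′ on the strand of the gene, with the matched letters in capitals. They come from Cdt1 (chr8:122568035-122568064, plus strand), Lig1 (chr7:13278841-13278870, plus strand), Bub1b (chr2:118598231-118598260, plus strand), Mki67 (chr7:135716460-135716489, minus strand), Top2a (chr11:99024312-99024341, minus strand) and Cdk1 (chr10:69352910-69352939, minus strand). The first 2 hold an E2F match and the other 4 a CHR match, and the capitals of Lig1 are an E2F motif read on the other strand.
Cdt1: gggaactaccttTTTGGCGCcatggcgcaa
Lig1: cgccaaagtgcGCGCGAAAtctgtgtggcg
Bub1b: ctgcgtcaagagacgttaaaTTTGAAactt
Mki67: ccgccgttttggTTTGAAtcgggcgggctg
Top2a: ctaattggtttaTTCGAAaaggcggtcttt
Cdk1: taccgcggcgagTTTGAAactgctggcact

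An E2F match was found for 4 of 13 S phase genes (30.8%) and for 1 of 17 G2/M genes (5.88%). Of all 27025 genes with a promoter of the same length, 2.6% had one. A gene with several promoters was counted once, by a match in any of them. The 4 S phase genes were Cdt1, Lig1, Cdc6 and Uhrf1, and the G2/M gene was Cdk1. A CHR match was found for 1 S phase gene (7.69%, Fen1) and for 12 of 17 G2/M genes (70.6%), beside 21.7% of all these genes. CCAAT was found for 4 S phase genes (30.8%) and for 15 of 17 G2/M genes (88.2%), beside 41.1% of all. Ccne1, E2f1, Tyms, Tk1 and Dut of S phase and Birc5 and Nusap1 of G2/M held none of the 3 motifs in this window, and no promoter was read for Pkmyt1, Ccna2 or Stmn1. The matches describe letters in the window and do not show that a factor binds there.

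**Figure D1:**
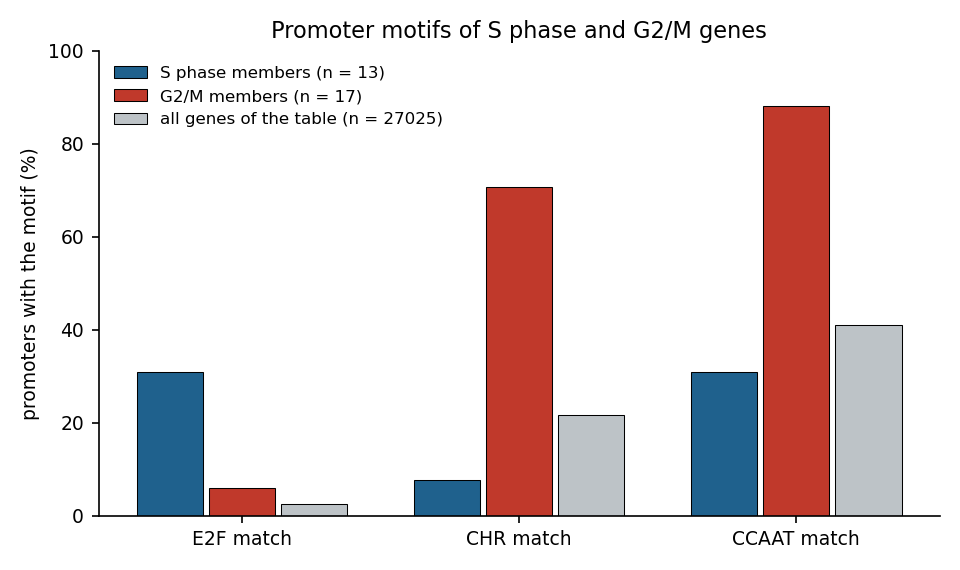
Share of genes (vertical axis, percent) whose promoters, windows of 300 bases, held an E2F, CHR or CCAAT match, for the 13 S phase genes, the 17 G2/M genes and all 27025 genes. Each gene is counted once. CHR and CCAAT matches were found for 70.6% and 88.2% of the G2/M genes.

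Of the 39 genes, 25 had enough counts to be tested, 10 of S phase and 15 of G2/M. A gene was tested when at least 4 libraries reached 3.64 CPM, where CPM is the UMI count of a gene scaled to a common library size. Among the S phase genes, Ccnd1 (cyclin D1, which starts the passage out of G1) was the most abundant, with group means of 163 to 198 CPM, and the other 9 tested genes had group means of 2.84 to 61.3 CPM. Group means of the tested G2/M genes were 1.03 to 28.3 CPM, and the highest belonged to Stmn1, a regulator of microtubules that non-dividing cells also express. Bub1b, Mki67, Cdc20, Aurka and Tpx2 reached the filter level in 0 of the 5 male WT libraries and were tested through the other groups. Their differences from male WT, against male KO and against female WT, are therefore partly built into the filter. The same holds for Ccna2 between the sexes, which reached that level in 0 of 5 male KO libraries and 1 of 5 male WT libraries. The 14 genes too low to test were Ccne1, Ccne2, Cdc6, Gins2, Rrm2 and Uhrf1 of S phase and Ccnb1, Cks2, Bub1, Cenpe, Cenpf, Kif11, Kif20a and Nusap1 of G2/M.

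Across all 18, libraries held 435838 to 9149144 UMIs. Their ratio of reads to UMIs fell into a low range (1.79 to 1.89, 8 libraries), a middle range (2.94 to 3.12, 6 libraries) and a high range (5.52 to 7.26, 4 libraries), and the high range held 3 of 4 female WT libraries, 1 female KO library and no male library. Chd8 itself was at 95.9 to 116 CPM in male KO and 134 to 166 CPM in male WT (log2 fold change -0.54 ± 0.10, SE, adjusted p = 0.00171), and at 115 to 138 CPM in female KO and 131 to 185 CPM in female WT (log2 fold change -0.44 ± 0.12, adjusted p = 0.0548). A 3′ tag outside the altered part of Chd8 would still be counted, so this does not check the label. All 10 microglial markers were detected in each group. Their sum was 30356 to 35449 CPM in female KO and 25751 to 29133 CPM in female WT, which did not overlap. In males the sum was 26377 to 30216 CPM in KO and 29897 to 33804 CPM in WT. The part of these sums in the differences below was not tested. In females 1 of the 10 markers was called lower in KO and 0 were called higher. In males 2 of the 10 were called lower in KO, Cx3cr1 and Olfml3. Cx3cr1, the fractalkine receptor, was at 919 to 1700 CPM in male KO and 2407 to 3543 CPM in male WT (log2 fold change -1.15, adjusted p = 0.000136), and the part of this in the male differences below was not tested.

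Male KO against male WT microglia asked whether cell cycle transcripts differ with the Chd8 label in 1 sex. Of 25 tested genes 4 were higher and 0 were lower in male KO (adjusted p under 0.05, quasi-likelihood test of edgeR). Over all 10948 genes tested, 3.37% were called higher and 2.87% lower. The 4 were Cdt1 and Rrm1 of S phase and Pkmyt1 and Bub1b of G2/M. At an unadjusted p under 0.05 there were 10 higher and 0 lower, and DESeq2 called the same 4 higher and 0 lower. In 7 of the 25 genes every male KO library lay above every male WT library (Cdt1, E2f1, Pcna, Rrm1, Pkmyt1, Bub1b and Tpx2), beside 5.27% of all genes, and in 0 did every KO library lie below, beside 4.58%. In all, 23 of the 25 genes had a log2 fold change above 0, beside 48.6% of all genes. In bulk RNA, fewer cells of a type and less RNA per cell cannot be told apart.

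Cdt1 loads the replicative helicase onto origins (ENSMUSG00000006585, chr8:122568015-122573554, GRCm38, plus strand), and its E2F match stands 32 bases after the start. It was at 25.2, 27.6, 16.8, 24.7 and 28.9 CPM in male KO replicates 36, 6, 9, 17 and 40, against 16.7, 11.6, 11.5, 15.8 and 14.3 CPM in male WT replicates 13, 37, 10, 11 and 14. The groups did not overlap, although KO replicate 9 lay next to WT replicate 13. Cdt1 was 1.77-fold higher in male KO (log2 fold change 0.82 ± 0.17, adjusted p = 0.00318). It passed in 18 of 19 alternative settings and missed on read counts without UMI correction (log2 fold change 0.83, adjusted p = 0.0551).

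Rrm1 is the large subunit of ribonucleotide reductase, which makes the deoxynucleotides for DNA synthesis (ENSMUSG00000030978, chr7:102441695-102469771, plus strand). Male KO libraries held 23.3, 29.4, 25.8, 26.6 and 24.3 CPM in the same replicate order, and male WT libraries 15.4, 19.4, 16.4, 15.8 and 16.2 CPM. All KO values lay above all WT values, and WT replicate 37 stood apart from the other WT libraries. Rrm1 was 1.55-fold higher in male KO (log2 fold change 0.63 ± 0.16, adjusted p = 0.0179). Without KO replicate 6 the adjusted p was 0.0564 (log2 fold change 0.58), and without KO replicates 6, 9 and 17 it was 0.282 (log2 fold change 0.53). On reads it was 0.058 (log2 fold change 0.73).

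E2f1, a transcription factor that activates S phase genes (ENSMUSG00000027490, chr2:154559407-154569892, minus strand), was at 5.45, 9.07, 5.94, 4.58 and 6.57 CPM in male KO and 3.68, 1.76, 3.98, 1.73 and 4.12 CPM in male WT. The groups did not overlap, and the nearest values were 4.58 CPM in KO and 4.12 CPM in WT. Its log2 fold change of 1.06 ± 0.35 did not pass (adjusted p = 0.0846). With the male libraries fitted alone it passed (adjusted p = 0.0258), as it did without the shallow female KO replicate 33 and female WT replicate 34 (adjusted p = 0.0457).

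Pcna, the sliding clamp of the replication fork (ENSMUSG00000027342, chr2:132249162-132253314, minus strand), was at 58.5, 61.7, 65.9, 61.1 and 59.3 CPM in male KO and 39.5, 57.1, 50.3, 52.4 and 44.1 CPM in male WT. KO values were close together and lay above all WT values, which were spread wider. The log2 fold change of 0.33 ± 0.20 did not pass (adjusted p = 0.442), but passed with the male libraries fitted alone (0.34, adjusted p = 0.0415). Annotated pseudogenes of Pcna can share its reads. Lig1, the ligase that joins replicated fragments (ENSMUSG00000056394, chr7:13277283-13311433, plus strand), was at 26.4, 18.9, 27.2, 21.98 and 23.6 CPM in male KO and 23.4, 19.0, 24.4, 19.6 and 25.1 CPM in male WT. These ranges overlapped almost fully (log2 fold change 0.09 ± 0.13, adjusted p = 0.824).

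The other tested S phase genes did not pass in males. The flap nuclease Fen1, the nucleotide enzymes Tyms, Tk1 and Dut, and Ccnd1 had log2 fold changes of -0.29 to 0.32. The lowest was that of Ccnd1 (163 ± 41.9 CPM in male KO and 198 ± 43.0 CPM in male WT, SD, n = 5 each, adjusted p = 0.397). Summed over the 15 S phase genes other than Ccnd1, male KO libraries held 198, 203, 201, 195 and 203 CPM and male WT libraries 142, 152, 162, 156 and 155 CPM. The lowest KO sum was above the highest WT sum. With Ccnd1 included the sums overlapped, at 363 ± 40.8 CPM in male KO and 352 ± 40.5 CPM in male WT.

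**Figure D2:**
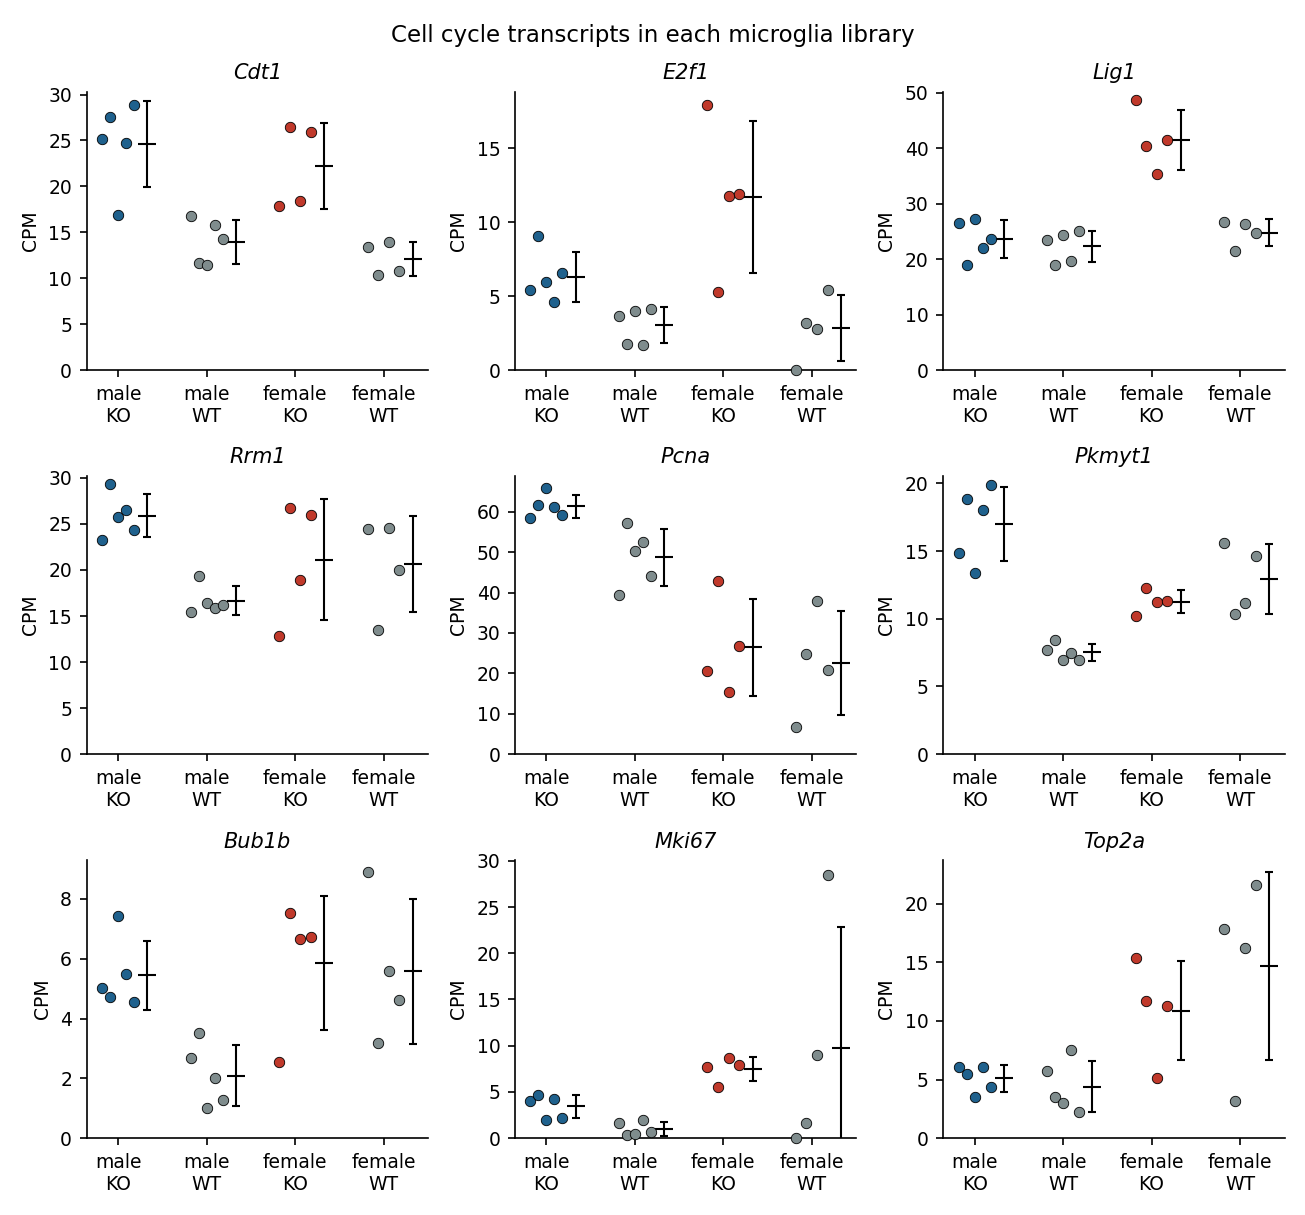
CPM (vertical axes, TMM-scaled) of 9 genes in each library, with KO left of WT within each sex. Points are libraries and the bar beside each group is the mean ± SD (n = 5 for males, n = 4 for females), on axes that start at 0; the bar of Mki67 in female WT reaches below 0 and is cut there. For Cdt1, E2f1, Rrm1, Pcna, Pkmyt1 and Bub1b all male KO points lie above all male WT points.

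Among G2/M genes, Pkmyt1 had the lowest p in males. It encodes Myt1, the membrane-bound kinase that holds Cdk1 inactive until mitosis (ENSMUSG00000023908, chr17:23726336-23736735, plus strand). Male KO libraries held 14.9, 18.9, 13.4, 18.02 and 19.9 CPM and male WT libraries 7.69, 8.46, 6.97, 7.49 and 6.98 CPM. The lowest KO library was well above the highest WT library. Pkmyt1 was 2.27-fold higher in male KO (log2 fold change 1.19 ± 0.17, adjusted p = 0.000116) and passed in all 19 alternative settings run for this comparison, with adjusted p of 1.94e-06 to 0.0221. Its 3′ end overlaps Paqr4 on the other strand, and the strand setting of the counting is not given in the sources used here. Paqr4 had 718 UMIs over all libraries against 681 for Pkmyt1, and a log2 fold change of 0.34 ± 0.22 in males (adjusted p = 0.456). In females that of Paqr4 was -0.11 ± 0.27 (adjusted p = 0.898). Male over female, Paqr4 was at -0.82 ± 0.25 in WT (adjusted p = 0.0290) and -0.37 ± 0.23 in KO (adjusted p = 0.352). Pkmyt1 was also called lower in male than in female WT, but its mean was higher in male than in female KO. The part of Paqr4 in the Pkmyt1 counts was not tested.

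Bub1b encodes BubR1, a kinase-like protein of the spindle checkpoint (ENSMUSG00000040084, chr2:118598211-118641591, plus strand), and the CHR match shown above stands 40 bases after the start. It was at 5.04, 4.71, 7.43, 5.50 and 4.55 CPM in male KO and 2.68, 3.52, 0.996, 2.02 and 1.27 CPM in male WT. The groups did not overlap. Bub1b was 2.46-fold higher in male KO (log2 fold change 1.30 ± 0.32, adjusted p = 0.0155). Without WT replicate 14 the adjusted p was 0.0565, without KO replicates 6, 9 and 17 it was 0.188, within the libraries of the low reads-per-UMI range 0.128 and on reads 0.433, at log2 fold changes of 0.95 to 1.15.

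Mki67 encodes Ki-67, a protein of the mitotic chromosome surface used to mark dividing cells (ENSMUSG00000031004, chr7:135689784-135716361, minus strand). It was at 3.99, 4.71, 1.98, 4.27 and 2.22 CPM in male KO and 1.67, 0.352, 0.498, 2.02 and 0.634 CPM in male WT. KO replicate 9 lay just under WT replicate 11, and the other libraries did not overlap. A log2 fold change of 1.60 ± 0.64 did not pass (adjusted p = 0.174). With no filter on low counts the adjusted p was 0.0301, and within the low reads-per-UMI range 0.0435 (log2 fold change 1.97). Top2a, the topoisomerase that untangles sister chromatids (ENSMUSG00000020914, chr11:98992943-99024189, minus strand), was at 6.08, 5.44, 3.47, 6.11 and 4.34 CPM in male KO and 5.69, 3.52, 2.99, 7.49 and 2.22 CPM in male WT. Here the groups overlapped, and the highest value was a WT library (log2 fold change 0.19 ± 0.39, adjusted p = 0.876).

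The spindle assembly factor Tpx2 was at 2.32 to 3.78 CPM in male KO and 0.996 to 1.41 CPM in male WT, with a log2 fold change of 1.22 ± 0.43 that did not pass (adjusted p = 0.105). The log2 fold change was 0.81 ± 0.33 for Cdc20, an activator of the anaphase-promoting complex (adjusted p = 0.180). It was 0.84 ± 0.36 for Aurkb, the kinase of the chromosomal passenger complex (adjusted p = 0.214), and 0.68 ± 0.33 for Cdk1, the mitotic kinase (adjusted p = 0.269). Cdc20 shares its 3′ end with Elovl1 on the other strand, which had 13258 UMIs and a log2 fold change of 0.10 ± 0.09. The remaining 7 tested G2/M genes had log2 fold changes of -0.01 (Plk1, a mitotic kinase) to 0.72 (Aurka, a spindle kinase). The median over the 15 tested G2/M genes was 0.68, that over the 10 S phase genes 0.32 and that over all genes -0.01.

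G2/M transcripts summed over all 23 genes reached 99.4, 103, 104, 123 and 105 CPM in male KO, against 69.6, 69.4, 55.8, 80.6 and 56.8 CPM in male WT. These sums did not overlap. Counted without the filter, from UMIs pooled per group, 38 of the 39 genes were higher in male KO, all but Ccnd1. In that count 58.1% of 15997 genes were higher in male KO. Pooling gives deep libraries more weight, and male KO replicate 40 held 9149144 of the 21657765 male KO UMIs. Plk1 was among the 38 although its mean over libraries was 5.77 CPM in male KO and 5.91 CPM in male WT. All 14 genes too low to test were among the 38. Ccne1, the cyclin that pairs with Cdk2 at the start of S phase, had 40 UMIs in male KO (1.85 CPM, 95% exact Poisson interval 1.32 to 2.51) and 5 in male WT (0.346 CPM, 0.112 to 0.807). Kif20a, a kinesin of cytokinesis, had 38 UMIs in male KO (1.75 CPM, 1.24 to 2.41) and 9 in male WT (0.623 CPM, 0.285 to 1.18). The intervals cover counting error only.

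The other genes too low to test are given by their UMIs pooled over a group. Among S phase genes, Gins2, a subunit of the replicative helicase, had 62 in male KO and 23 in male WT, and 13 in female KO and 14 in female WT. Uhrf1, which carries DNA methylation over to the new strand, had 35 in male KO and 14 in male WT, and 22 in female KO and 14 in female WT. Rrm2, the small subunit of ribonucleotide reductase, had 27 in male KO and 9 in male WT, and 13 in female KO and 6 in female WT. The groups held 21657765 UMIs over all genes in male KO and 14450631 in male WT, and 8906107 in female KO and 4991260 in female WT, so equal levels would also give more UMIs in KO. The helicase loader Cdc6 had 15 UMIs in male KO and 4 in male WT, and 6 in female KO and 0 in female WT. Male KO replicate 40, the deepest library, held 11 of these 15 and 31 of the 62 UMIs of Gins2. The cyclin Ccne2 had 9 in male KO and 2 in male WT, and 1 in female KO and 0 in female WT.

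Among G2/M genes, Cks2, a subunit of cyclin-dependent kinases, had 37 UMIs in male KO and 13 in male WT, and 15 in female KO and 10 in female WT. Nusap1, a microtubule-binding spindle protein, had 30 in male KO and 9 in male WT, and 13 in female KO and 4 in female WT. The motor proteins Cenpe and Kif11 had 27 UMIs each in male KO, against 12 and 14 in male WT, and 22 and 21 in female KO, against 4 and 6 in female WT. Cyclin B1 (Ccnb1), the partner of Cdk1 in mitosis, had 19 in male KO and 10 in male WT, and 17 in female KO and 4 in female WT. Cenpf, a kinetochore protein, had 8 in male KO and 5 in male WT, and 6 in female KO and 2 in female WT. The checkpoint kinase Bub1 had 8 in male KO and 2 in male WT, and 4 in female KO and 0 in female WT. Counts this low cannot resolve a difference in a single gene between the female groups, whose libraries held fewer UMIs.

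Transcripts of other cell types differed between the same libraries. All 8 neuronal markers were detected in both male groups, with sums of 70.6 to 334 CPM in KO and 16.1 to 39.5 CPM in WT. Astrocyte markers summed to 249.7 to 463 CPM in male KO (7 of 7 detected) and 130 to 179 CPM in male WT (5 of 7, Gja1 and Slc4a4 at 0). Oligodendrocyte lineage markers summed to 244 to 831 CPM in male KO (8 of 9, Pdgfra at 0) and 101 to 155 CPM in male WT (7 of 9, Mog and Olig2 at 0). Border-associated macrophage markers, all 8 detected in both groups, summed to 157 to 251 CPM in male KO and 30.0 to 57.8 CPM in male WT. Lymphocyte markers summed to 0.984 to 2.97 CPM in male KO (5 of 6, Ms4a1 at 0) and 0.488 to 3.49 CPM in male WT (6 of 6). Endothelial and mural markers summed to 32.5 to 36.2 CPM in male KO (7 of 7) and 32.2 to 41.3 CPM in male WT (6 of 7, Rgs5 at 0). The highest sums of neuronal markers among male KO libraries were those of replicates 6, 9 and 17. Without these 3, Cdt1 and Pkmyt1 remained called in males and Rrm1 and Bub1b did not. The part of border-associated macrophages in these differences was not tested.

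**Figure D3:**
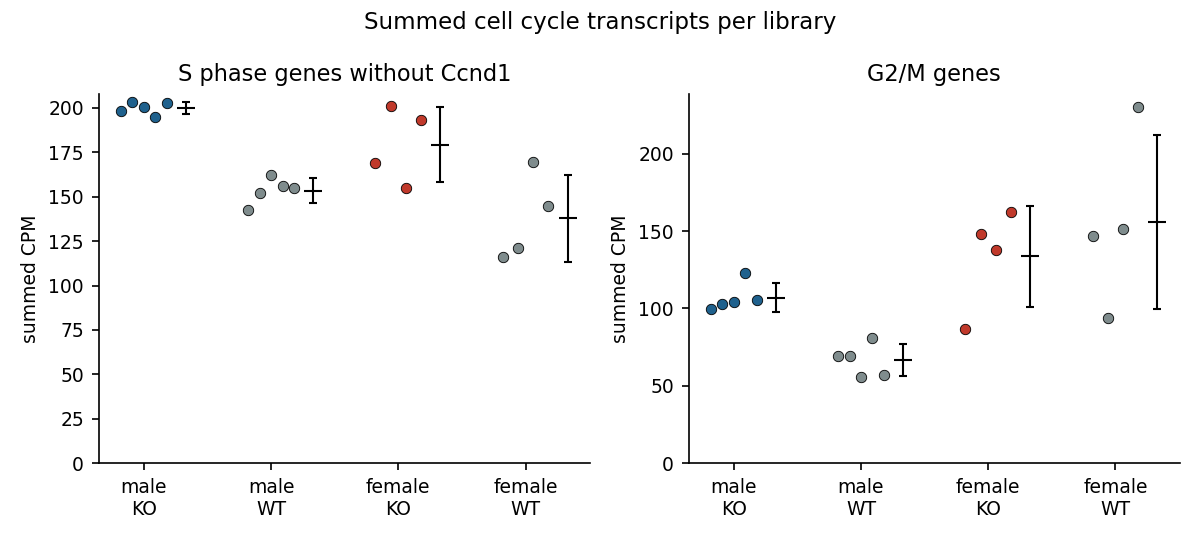
Summed CPM (vertical axes) of the 15 S phase genes other than Ccnd1 and of the 23 G2/M genes in each library, with the mean ± SD of each group. In both panels the male KO libraries lie above the male WT libraries, while the female groups overlap.

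In females 2 of 25 tested genes were higher in KO and 0 were lower, beside 0.849% of all genes called higher and 1.83% lower. Both were S phase genes, Lig1 and Cdt1. At an unadjusted p under 0.05 there were 3 higher and 0 lower, and DESeq2 called 3 higher (Lig1, Cdt1 and E2f1) and 0 lower. Of the 15 G2/M genes 0 were called by either tool, and 0 had an unadjusted p under 0.05.

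Lig1 was at 48.6, 40.4, 35.3 and 41.5 CPM in female KO replicates 33, 16, 1 and 7, against 26.7, 21.5, 26.3 and 24.6 CPM in female WT replicates 34, 39, 31 and 30. Every female KO library lay above every female WT library. Lig1 was 1.64-fold higher in female KO (log2 fold change 0.72 ± 0.17, adjusted p = 0.0279). Cdt1 was at 17.9, 26.5, 18.4 and 25.96 CPM in female KO and 13.4, 10.3, 14.0 and 10.8 CPM in female WT. Its groups did not overlap either, and it was 1.93-fold higher in KO (log2 fold change 0.95 ± 0.23, adjusted p = 0.0319). Non-overlap of this kind, KO above WT, was found for these 2 of 25 genes and for 2.48% of all genes; KO lay below WT in 0 of 25 and in 2.84% of all genes. In all, 14 of the 25 genes had a log2 fold change above 0, beside 51.2% of all genes.

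Both female calls were lost in several settings with folds of like size. Without KO replicate 16 or 7, or WT replicate 39 or 30, the adjusted p of Lig1 was 0.0657, 0.0741, 0.061 and 0.0726 and that of Cdt1 0.0977, 0.0959, 0.0663 and 0.103. Without WT replicate 34 that of Cdt1 was 0.0525. On reads, with females fitted alone, with a covariate for reads per UMI, within the middle range, and without KO replicate 33 and WT replicates 34 and 30 together, neither gene passed. Over all 18 settings the log2 fold change was 0.65 to 0.90 for Lig1 and 0.78 to 1.12 for Cdt1.

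E2f1 was at 17.9, 5.30, 11.8 and 11.9 CPM in female KO and 0, 3.18, 2.79 and 5.39 CPM in female WT. The groups overlapped in KO replicate 16 and WT replicate 30. In the shallow WT replicate 34 a count of 0 allows up to 6.55 CPM. The log2 fold change of 1.64 ± 0.47 did not pass (adjusted p = 0.0686), and it passed without KO replicate 16 (log2 fold change 1.96, adjusted p = 0.0421) and with no filter (adjusted p = 0.0249). Rrm1 was at 12.8, 26.8, 19.0 and 25.96 CPM in female KO and 24.5, 13.5, 24.6 and 20.0 CPM in female WT. Pcna was at 20.5, 43.0, 15.4 and 26.9 CPM in female KO and 6.68, 24.7, 38.01 and 20.8 CPM in female WT. Both overlapped widely, with log2 fold changes of 0.18 ± 0.21 for Rrm1 (adjusted p = 0.757) and 0.16 ± 0.29 for Pcna (adjusted p = 0.859).

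In the fit of all libraries, 7 of the 15 G2/M genes had a log2 fold change above 0 in females. That count was 10 of 15 with a covariate for reads per UMI, 10 of 15 without WT replicate 30, and 15 of 16 within the middle range, which holds 2 female KO libraries and 1 female WT library. Pkmyt1 was at 10.2, 12.3, 11.3 and 11.3 CPM in female KO and 15.6, 10.3, 11.2 and 14.6 CPM in female WT (log2 fold change -0.12 ± 0.22, adjusted p = 0.922). Bub1b was at 2.56, 7.53, 6.66 and 6.72 CPM in female KO and 8.91, 3.18, 5.59 and 4.62 CPM in female WT (log2 fold change 0.37 ± 0.39, adjusted p = 0.716). The ranges overlapped for both, and the shallow KO replicate 33 was the lowest KO library in each.

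Mki67 was at 7.68, 5.58, 8.71 and 7.94 CPM in female KO and 0, 1.59, 8.94 and 28.5 CPM in female WT. The KO libraries were alike, whereas WT replicate 30 stood far above the other WT libraries. The log2 fold change was -0.57 ± 0.59 (adjusted p = 0.707) and, without WT replicate 30, 0.66 (adjusted p = 0.701). Top2a was at 15.4, 11.7, 5.12 and 11.3 CPM in female KO and 17.8, 3.18, 16.2 and 21.6 CPM in female WT (log2 fold change -0.50 ± 0.43, adjusted p = 0.640). WT replicate 39 was its lowest library and WT replicate 30 its highest.

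The summed G2/M transcripts were 87.0, 148, 138 and 162 CPM in female KO and 147, 93.9, 151 and 230.3 CPM in female WT. Summed S phase transcripts without Ccnd1 were 169, 201, 155 and 193 CPM in female KO and 116, 121, 169 and 145 CPM in female WT. Both sums overlapped between the groups. Without a filter 29 of 39 genes had a higher pooled level in female KO, beside 57.3% of all genes. Of the 25 tested genes, 18 were higher in this pooled count, which gives deep libraries more weight, and 14 in the fit. The median log2 fold change was 0.17 over the 10 tested S phase genes and -0.07 over the 15 tested G2/M genes, beside 0.01 over all genes. The G2/M median was 0.23 without WT replicate 30, 0.18 with a covariate for reads per UMI and 0.67 within the middle range. The S phase median was 0.17 without WT replicate 30, 0.50 with the covariate and 0.78 within the middle range.

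Neutrophil markers, all 10 detected in both female groups, summed to 988 to 5293 CPM in female KO and 2153 to 15626 CPM in female WT, and the highest sum was that of WT replicate 30. Monocyte markers summed to 75.7 to 108 CPM in female KO (6 of 6 detected) and 108 to 397 CPM in female WT (5 of 6, Vcan at 0). Their part in the female values was not tested.

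**Figure D4:**
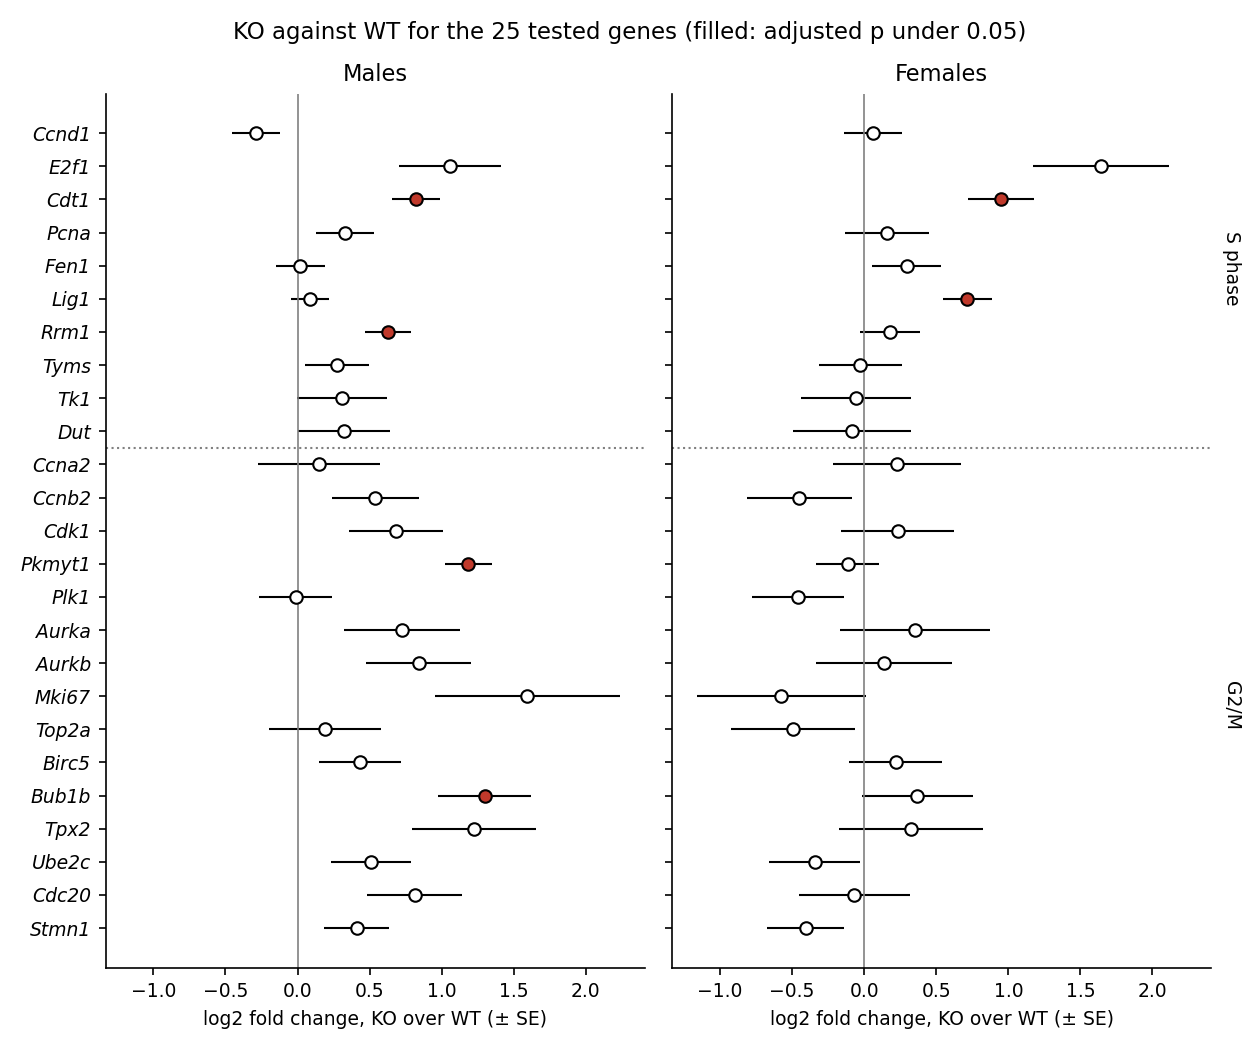
Log2 fold change of KO over WT (horizontal axis, ± SE) for the 25 tested genes in males (left) and females (right), with S phase genes above the dotted line and G2/M genes below it. Filled points passed (adjusted p under 0.05), which held for Cdt1, Rrm1, Pkmyt1 and Bub1b in males and for Cdt1 and Lig1 in females.

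Averaged over the sexes with equal weight, 5 of 25 genes were higher in KO and 0 were lower, beside 4.37% and 5.13% of all genes. The count at an unadjusted p under 0.05 was 7 higher and 0 lower, and DESeq2 called 6 higher and 0 lower. This average rests on the same libraries as the comparisons within each sex. The S phase genes were Cdt1 (log2 fold change 0.89 ± 0.14, adjusted p = 0.000395), E2f1 (1.35 ± 0.30, 2.55-fold, adjusted p = 0.00529) and Lig1 (0.40 ± 0.11, adjusted p = 0.0212). The G2/M genes were Pkmyt1 (0.53 ± 0.14, adjusted p = 0.0157) and Bub1b (0.83 ± 0.25, adjusted p = 0.0386). Cdt1 and E2f1 each passed in 26 of 27 alternative settings and missed within the 6 libraries of the middle reads-per-UMI range (adjusted p = 0.315 and 0.212). Bub1b passed in 10 of 27, and it was lost without any 1 of female KO replicates 16, 1 and 7, female WT replicates 39, 31 and 30, male KO replicates 36, 9 and 17, or male WT replicates 10, 11 and 14 (adjusted p of 0.0515 to 0.0809).

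Whether the KO difference itself depended on sex was tested as the male minus the female log2 fold change. Pkmyt1 was the 1 of 25 genes called, with a difference of 1.30 ± 0.28 (adjusted p = 0.0485), and 0 were called in the other direction, beside 0.192% and 0.0457% of all genes. At an unadjusted p under 0.05 there were 4 of one sign and 1 of the other, and DESeq2 called Pkmyt1 alone. For Paqr4, which overlaps the 3′ end of Pkmyt1, the difference was 0.45 ± 0.34 (adjusted p = 0.790). The Pkmyt1 call passed in 4 of 27 alternative settings. It was lost without any 1 of female KO replicates 16, 1 and 7, female WT replicates 34, 39 and 30, male KO replicates 36, 6, 17 and 40, or the 5 male WT replicates (adjusted p of 0.0537 to 0.153). The difference in log2 fold change was -0.12 ± 0.29 for Cdt1, -0.59 ± 0.61 for E2f1 and -0.63 ± 0.22 for Lig1 (adjusted p = 0.970, 0.871 and 0.354). For Mki67 it was 2.17 ± 0.87 (adjusted p = 0.465). It was above 0 for 14 of the 15 G2/M genes (median 0.82) and for 5 of the 10 S phase genes (median 0.02), beside 48.9% of all genes. This tally changed with the setting. With a covariate for reads per UMI the difference was above 0 for 11 of 15 G2/M genes (median 0.65), and within the 6 libraries of the middle range for 8 of 16 (median -0.13). That range holds 1 male KO and 1 female WT library, so the technical range and the loss of libraries cannot be told apart there. Without female WT replicate 30 it was above 0 for 12 of 15 (median 0.50).

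Male and female microglia of the same genotype were also compared. In KO, Pcna was higher in males and Lig1, Ccna2 and Birc5 were lower, so that 1 of 25 was called higher and 3 lower, beside 2.83% and 4.27% of all genes. The log2 fold change of male over female KO was 1.10 ± 0.24 for Pcna (adjusted p = 0.00848) and -0.77 ± 0.14 for Lig1 (adjusted p = 0.00277). Pcna reached 58.5 to 65.9 CPM in male KO, against 15.4 to 43.0 CPM in female KO. Ccna2, the cyclin of S phase and early mitosis, was at 0.990 to 3.26 CPM in male KO and 2.56 to 10.7 CPM in female KO (-1.69 ± 0.40, adjusted p = 0.0143). It reached the filter level in 0 of the male KO libraries, so this difference is partly built into the filter. Birc5, or survivin, a subunit of the passenger complex, was at 3.64 to 5.45 CPM in male KO and 5.63 to 11.2 CPM in female KO (-1.06 ± 0.28, adjusted p = 0.0244). Birc5 did not overlap between the sexes and Ccna2 did. Without male KO replicates 6, 9 and 17, 0 of these 4 passed in edgeR, at log2 fold changes of 1.07 for Pcna, -0.68 for Lig1, -1.47 for Ccna2 and -1.20 for Birc5. Ccna2 was lost without female KO replicate 1 or 7 (adjusted p = 0.0572 and 0.118), and Birc5 without female KO replicate 16 or 7 or male KO replicate 17 or 40 (adjusted p of 0.0524 to 0.0900). Ccna2 overlaps Exosc9 at its 3′ end on the other strand. In the same comparison 9 of 9 tested neutrophil markers had an unadjusted p under 0.05 in the lower direction, 4 of them called, with sums of 325 to 630.0 CPM in male KO and 988 to 5293 CPM in female KO. Monocyte markers summed to 27.2 to 59.9 CPM in male KO and 75.7 to 108 CPM in female KO. Neuronal markers summed to 70.6 to 334 CPM in male KO and 29.7 to 89.1 CPM in female KO. Astrocyte markers summed to 249.7 to 463 CPM in male KO and 29.8 to 255 CPM in female KO (6 of 7 detected, Aqp4 at 0), and oligodendrocyte lineage markers to 244 to 831 CPM in male KO and 152 to 209 CPM in female KO (7 of 9, Pdgfra and Olig2 at 0). Their part in the differences between male and female KO was not tested.

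In WT, 10 of the 15 tested G2/M genes were lower in males, and Pcna was higher. Called lower were 10.3% of all genes and called higher 6.94%. The 10 were Mki67, Stmn1, Ube2c, Top2a, Birc5, Cdc20, Ccnb2, Ccna2, Pkmyt1 and Bub1b, with log2 fold changes of male over female WT of -3.28 (Mki67) to -0.73 (Pkmyt1). Mki67, Cdc20 and Bub1b reached the filter level in 0 male WT libraries and Ccna2 in 1, so these differences are partly built into the filter. All 15 G2/M genes had a log2 fold change under 0 (median -1.25), whereas 48.8% of all genes were above 0. With a covariate for reads per UMI 1 of 15 was above 0 (median -0.97), and within the middle range 3 of 16 (median -0.55). Stmn1 was at 10.6 to 14.0 CPM in male WT and 16.7 to 36.2 CPM in female WT (-1.19 ± 0.26, adjusted p = 0.00311). Ube2c, the ubiquitin-conjugating enzyme of the anaphase-promoting complex, was at 4.98 to 8.35 CPM in male WT and 6.68 to 29.3 CPM in female WT (-1.43 ± 0.31, adjusted p = 0.00328). Stmn1 did not overlap between the sexes and Ube2c did. Pcna was at 39.5 to 57.1 CPM in male WT and 6.68 to 38.01 CPM in female WT (0.93 ± 0.26, adjusted p = 0.0174).

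Most of these WT calls were lost without female WT replicate 30, which also left fewer female WT libraries to test. Without that replicate 2 of the 10 remained called, Stmn1 and Ube2c, and Mki67 did not pass (log2 fold change -2.04, adjusted p = 0.0521), nor did Pcna (0.86, adjusted p = 0.0681). The direction largely stayed, with 1 of 15 G2/M genes above 0 and a median log2 fold change of -0.997. Bub1b was also lost without female WT replicate 34 or 31 or male WT replicate 10, 11 or 14 (adjusted p of 0.0647 to 0.111). Pkmyt1 was lost without female WT replicate 34 (adjusted p = 0.0583), Ccnb2 without female WT replicate 31 (adjusted p = 0.0577) and Ccna2 without male WT replicate 14 (adjusted p = 0.0509). With a covariate for reads per UMI, and within the 6 libraries of the middle range, edgeR called 0 of the 25 genes in either direction. Since 3 of the 4 female WT libraries and no male library were in the high range, sex and this technical range cannot be fully told apart in WT. Neutrophil markers summed to 312 to 1147 CPM in male WT, against 2153 to 15626 CPM in female WT, with 10 of 10 markers detected in both. Monocyte markers summed to 31.1 to 58.5 CPM in male WT and 108 to 397 CPM in female WT, and border-associated macrophage markers to 30.0 to 57.8 CPM in male WT and 136 to 299 CPM in female WT. Of the markers tested, 9 of 9, 5 of 5 and 7 of 8 of these lists were called lower in male WT. Their part in the WT difference was not tested.

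**Figure D5:**
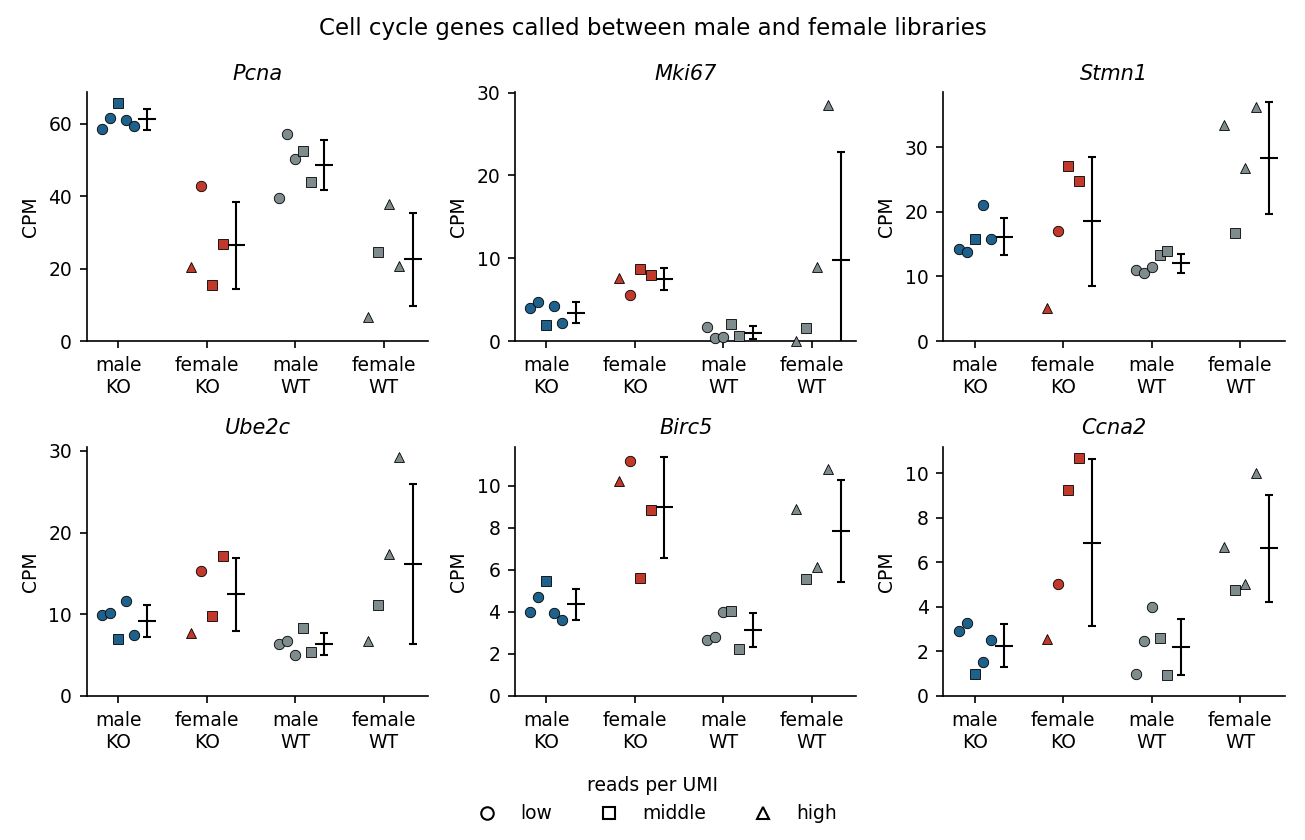
CPM (vertical axes) of 6 genes called between the sexes, with males left of females within each genotype. Circles, squares and triangles are libraries of the low, middle and high reads-per-UMI range, bars are mean ± SD (n = 5 for males, n = 4 for females; the Mki67 bar of female WT is cut at 0), and the highest Mki67 point (28.5 CPM) is female WT replicate 30.

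Genes of the same processes outside the 39 were counted from lists of textbook members. Beside these counts, 3.37% of all genes were called higher and 2.87% lower in male KO, and 0.849% and 1.83% in female KO. Of the 6 subunits of the MCM helicase, 3 were higher in male KO (Mcm2, Mcm5 and Mcm6) and 3 in female KO (Mcm2, Mcm4 and Mcm6), with 0 lower in either sex by edgeR, by DESeq2 or at an unadjusted p under 0.05. Mcm2 was at 15.5 ± 2.15 CPM in male KO and 8.12 ± 1.77 CPM in male WT (SD, n = 5 each, adjusted p = 0.00154). Female libraries held 22.5 ± 2.63 CPM of Mcm2 in KO, against 10.1 ± 1.80 CPM in WT (SD, n = 4 each, adjusted p = 0.00986). Mcm4 was at 13.9 ± 3.04 CPM in female KO and 4.84 ± 1.86 CPM in female WT (log2 fold change 1.53 ± 0.32, adjusted p = 0.0147). Of 18 other tested S phase genes, 3 were higher in male KO, led in p by the clamp loader subunit Rfc2 (0.42 ± 0.11), and 1 in female KO, the repair factor Rad51ap1 (2.27 ± 0.54). Rad51ap1 averaged 4.79 CPM in female KO and 0.724 CPM in female WT. The female WT mean was under the filter level of 3.64 CPM, so this difference is partly built into the filter.

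Of 24 other tested G2/M genes, 7 were higher in male KO, beside 3.37% of all genes. Those of lowest p were Gtse1, a microtubule-binding protein of G2 and S phase (log2 fold change 2.01 ± 0.43, adjusted p = 0.00488), the spindle protein Tacc3 (1.22 ± 0.27, adjusted p = 0.00567), the spindle pole protein Ckap2l (1.34 ± 0.30, adjusted p = 0.00733) and Cenpa, the histone H3 variant of centromeres (0.81 ± 0.20, adjusted p = 0.0160). Gtse1 averaged 5.70 CPM in male KO and 1.29 CPM in male WT, and Ckap2l 7.08 CPM and 2.78 CPM. Their male WT means were under the filter level of 3.64 CPM. These differences, and the count of 7, are therefore partly built into the filter. In females 1 of the 24 was higher in KO, the heterochromatin protein gene Cbx5 (1.16 ± 0.24), and 1 was lower, the condensin subunit Ncapd2 (-1.19 ± 0.27). The shares of all genes called in females were 0.849% higher and 1.83% lower.

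Of 24 tested regulators of the cycle, Foxm1 and Lin9 were higher and Cdkn1c was lower in male KO, beside 3.37% and 2.87% of all genes. Foxm1, the transcription factor of G2/M genes, was at 7.49 ± 1.71 CPM in male KO and 2.87 ± 1.15 CPM in male WT (log2 fold change 1.43 ± 0.35, adjusted p = 0.0129). The mean in male WT was under the filter level of 3.64 CPM, so this difference is partly built into the filter. Female libraries held 5.18 ± 3.50 CPM of Foxm1 in KO, against 5.41 ± 3.98 CPM in WT. Lin9, a subunit of the MuvB core, was higher by 0.65 ± 0.18 (adjusted p = 0.0310). Cdkn1c, the kinase inhibitor p57, was at 11.3 ± 3.34 CPM in male KO and 19.9 ± 3.45 CPM in male WT (-0.83 ± 0.19, adjusted p = 0.00960). In females edgeR called 0 of the 24 regulators, with 2 higher and 3 lower at an unadjusted p under 0.05, and DESeq2 called 0 higher and 1 lower.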

How the data were processed

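Per the labels' protocols, bulk MARS-seq libraries were barcoded per sample, pooled and amplified linearly. The authors deposited whole-number counts per gene, 1 table of UMI-corrected counts (used here) and 1 of reads (an alternative). The submitters' processing notes name cutadapt, STAR, HTSeq and build mm10; neither their versions, the annotation nor the strand setting is given in the sources used here. A further 16 library columns could be matched to no labelled sample and were left out. UMIs per library were 435838 to 9149144.

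The counts were filtered (filterByExpr by group, 10948 genes left), scaled by TMM and fitted in edgeR 4.0.16 (R 4.3.3) with 1 mean per group over all 18 libraries. P-values were adjusted by Benjamini-Hochberg over all genes tested and called under 0.05. CPM of genes are TMM-scaled, and sums of markers are scaled by library total. Every printed fold is the model's. The fit was tested on simulated data. Genes were named by rule: the 39 members, with full values for those called in a KO comparison and for Mki67, Top2a and Pcna, and up to 4 called genes of lowest p per further list. Alternatives were DESeq2 1.42.0, RLE size factors, no filter, reads, groups fitted alone, the reads-per-UMI range as covariate or held fixed, and libraries left out. The members and lists were chosen with earlier results of these data known. Gene coordinates come from GENCODE M21 (GRCm38). Of the 11 marker lists, 2 are not reported here.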

Additional observations from a re-analysis of the deposited data

Results flagged for a closer look

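In a screen of 48 groups of 4 or 5 values for a library far from the others, which chance alone flags in about 1 group in 20, 2 stood apart. Rrm1 in male WT replicate 37 was at 19.4 CPM, and the nearest other male WT library was at 16.4 CPM. The summed G2/M transcripts in male KO replicate 17 were 123 CPM, and the nearest other male KO library was at 105 CPM.

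The KO difference of Pkmyt1 was larger in males than in females by 1.30 on the log2 scale (edgeR adjusted p = 0.0485). It passed in 4 of 27 alternative settings, over which the difference was 0.76 to 1.38 and the adjusted p 0.0278 to 0.719.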

How the results depend on the processing

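No paired analysis was possible because each library carries a different replicate number. The 25 tested genes gave 4 higher in male KO, 2 higher in female KO, 5 in the average, 1 for the difference between sexes, 1 higher and 3 lower in male against female KO, and 1 higher and 10 lower in male against female WT. On reads these counts became 1, 0, 2 and 0, with 1 lower in KO and 4 lower in WT between sexes. With no filter 39 genes were tested. Males then gave 6, adding Ccne1 and Mki67, and females 3, adding E2f1, while the average gave 2, the difference 0 and WT 6 lower. RLE size factors gave 6 in the average and 0 for the difference. Groups fitted alone gave 6 in males, 0 in females and 5 lower in WT. The reads-per-UMI covariate gave 0 in females, 3 in the average, 0 for the difference, 1 lower in KO, and 0 higher and 0 lower in WT. Within 1 range there were 0 in females, 0 in the average, 0 for the difference, 1 lower in males (Ccnd1), 0 lower in KO, and 0 and 0 in WT. Without male KO replicates 6, 9 and 17 there were 2 in males, 0 for the difference, and 0 and 0 in KO. Without the 2 shallowest libraries males gave 6, the average 6 and the difference 0. Female KO replicate 33 and female WT replicates 34 and 30 were also left out together, a setting chosen after seeing the data. There were then 0 in females, 7 in the average, 0 for the difference, and 0 higher and 3 lower in WT. Leaving out 1 library gave 3 to 4 in males, 0 to 2 in females, 4 to 6 in the average, 0 to 1 for the difference, 1 to 2 higher and 1 to 3 lower in KO, and 0 to 1 higher and 2 to 10 lower in WT. Where a lone library of a group remained in such a fit, it was assumed to vary like the other groups. The cause of these changes was not tested.

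Signs turned in values that did not pass. On reads, Lig1 in males was -0.050 and Rrm1 in females -0.0012. In females Pkmyt1 was 0.13 within 1 range and 0.11 without those 3 libraries. Female Mki67 was 0.51 with the covariate, 2.34 within 1 range, 0.66 without WT replicate 30 and 0.38 without those 3 libraries, and leaving out 1 library gave -0.95 to 0.66. Female Top2a was 0.53 with the covariate and 1.42 within 1 range. Female Pcna was -0.17 within 1 range, -0.23 without KO replicate 16 and -0.11 without those 3 libraries. Top2a of male against female WT, a call in the fit of all libraries, was 0.63 within 1 range and did not pass there.

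Over all genes, calls higher and lower were 369 and 314 in males (112 to 599 and 81 to 546 over the alternatives), 93 and 200 in females (0 to 206 and 0 to 474), 478 and 562 in the average (59 to 699 and 64 to 887) and 21 and 5 for the difference (1 to 182 and 0 to 56). Between the sexes they were 310 and 467 in KO (29 to 892 and 75 to 890) and 760 and 1132 in WT (40 to 1256 and 184 to 1289). The shallowest libraries, at 435838 and 458075 UMIs, hold 34 and 66 UMIs of all 23 G2/M genes, and 3 counts there stand for 6.88 and 6.55 CPM, so single G2/M genes cannot be resolved in them.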
